A study of Saccharomyces cerevisiae with 6 samples.

Results

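The genes described here control and carry out the use of nitrogen in the budding yeast Saccharomyces cerevisiae: GATA-family transcription factors, amino acid and nitrogen-compound permeases, enzymes that break down nitrogen sources, and enzymes that assimilate ammonium. The 37 members were chosen by function and matched by gene symbol to the array's spots. A named spot was found for 36 of them, and 31 had a value on at least 2 of 3 hybridizations, among 5064 genes that met the same condition of 5365 named on the array. Yeast that is offered a good nitrogen source keeps the genes for poorer sources silent, a control called nitrogen catabolite repression. The activators Gln3 and Gat1 bind GATA sequences in promoters and are held in the cytoplasm in rich medium, while the GATA repressors Dal80 and Gzf3 compete for those sequences. A separate sensor of external amino acids at the plasma membrane induces permease genes such as AGP1, BAP2, BAP3, TAT1 and GNP1.

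Cells of strain S288C growing exponentially at 25 °C in rich medium (polypeptone, yeast extract and glucose) received chloroacetaldehyde, a reactive chlorinated aldehyde, at 25 ppm and an optical density of 1, and were harvested 2 h later. Polyadenylated RNA of these cells carried Cy5, RNA taken from cells just before the addition carried Cy3, and the pair was hybridized to one array for each of 3 independent biological samples. Whether the RNA from before the addition was taken anew for each array is not stated. All arrays used the same dye order, and there was no culture grown for 2 h without the compound, so dye, time of growth and exposure cannot be told apart. Each value is the log2 ratio of the exposed to the earlier cells. The labels name neither the base nor the direction; base 2 was assumed, and the direction is the likely one from the order of the channels, so every sign would turn if the ratio ran the other way. A ratio gives no level of expression, and the identity of the strain could not be checked from it.

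The arrays differed in how much they measured. Of the 5365 named genes, 5335 had a value on hybridization 1, 3854 on hybridization 2 and 4869 on hybridization 3. High-power and low-power scans of one array correlated at 0.921 to 0.937 across spots, whereas different hybridizations correlated at -0.05 to 0.21 across 3642 genes. The number of arrays limits the precision.

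None of the 31 tested members passed the test of the mean against 0 (0 at an adjusted p under 0.05, limma with Benjamini-Hochberg adjustment over 5064 genes). The share called over all genes was 0.0395%, or 2 genes, so the count of 0 says little about the members in particular. The lowest adjusted p among the members was 0.269, for the GATA-factor gene GAT2. At an unadjusted p under 0.05 there was 1 member higher, the proline catabolic gene PUT2, where 2.41% of all genes were higher at that limit, and 1 member lower, GAT2, where 2.59% of all genes were lower. GAT2 was also the single member with a mean difference of more than 2-fold, against 1.28% of all genes. The other 30 members had means between -0.37 and 0.83.

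**Figure D1:**
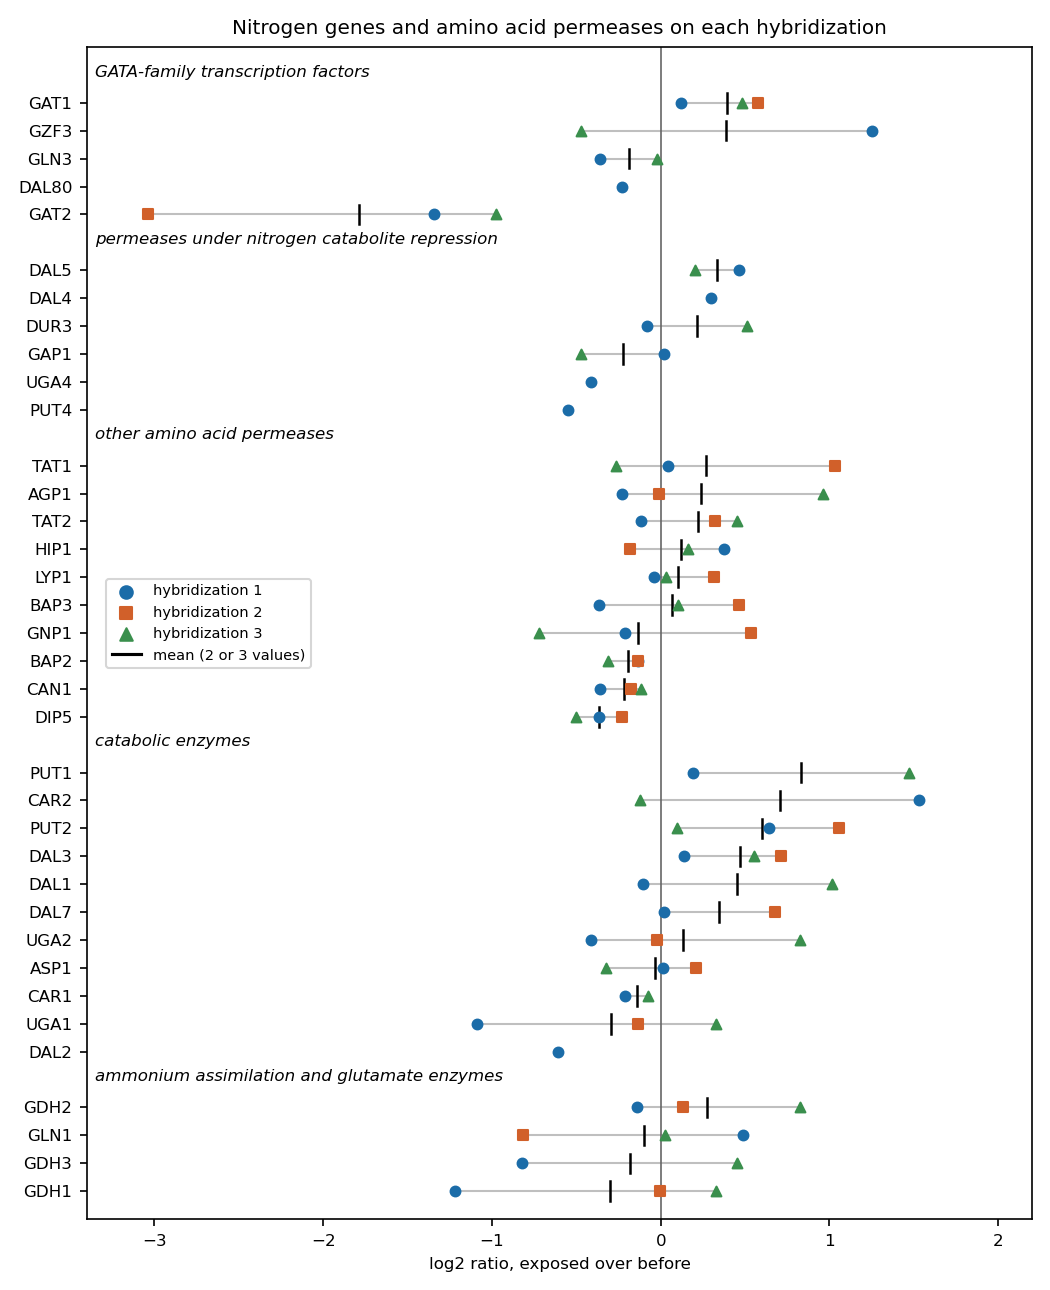
Log2 ratio (exposed over before, horizontal axis) of the 36 members with a named spot, by role, with 1 point for each hybridization that gave a value, a grey line over their range and a black bar at the mean where there were 2 or 3 values. GAT2 lies at -3.04 to -0.98, and its mean lies apart from those of the other members. On hybridization 1 the points of GDH1 (-1.22) and UGA1 (-1.09) fall within that range. Most of the other members have values on both sides of 0.

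The median of the members' means was 0.12, against -0.02 over all genes tested, and 18 of the 31 were positive, or 58.1%, against 46.7% of all genes. Of the 20 members with a value on every hybridization, 3 were higher on all of them (GAT1, PUT2 and DAL3), where 11.5% of all such genes were, and 4 were lower on all of them (GAT2, BAP2, CAN1 and DIP5), where 16.1% were. These counts lie near the shares over all genes. The unadjusted 95% confidence interval of a member's mean reached 0.52 to 0.98 to either side (median 0.66). Smaller differences were thus mostly not detectable with these arrays even before adjustment. The adjusted test was stricter, and GAT2 with a mean of -1.79 did not pass it (adjusted p = 0.269, limma). Differences larger than these widths could therefore also go undetected.

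**Figure D2:**
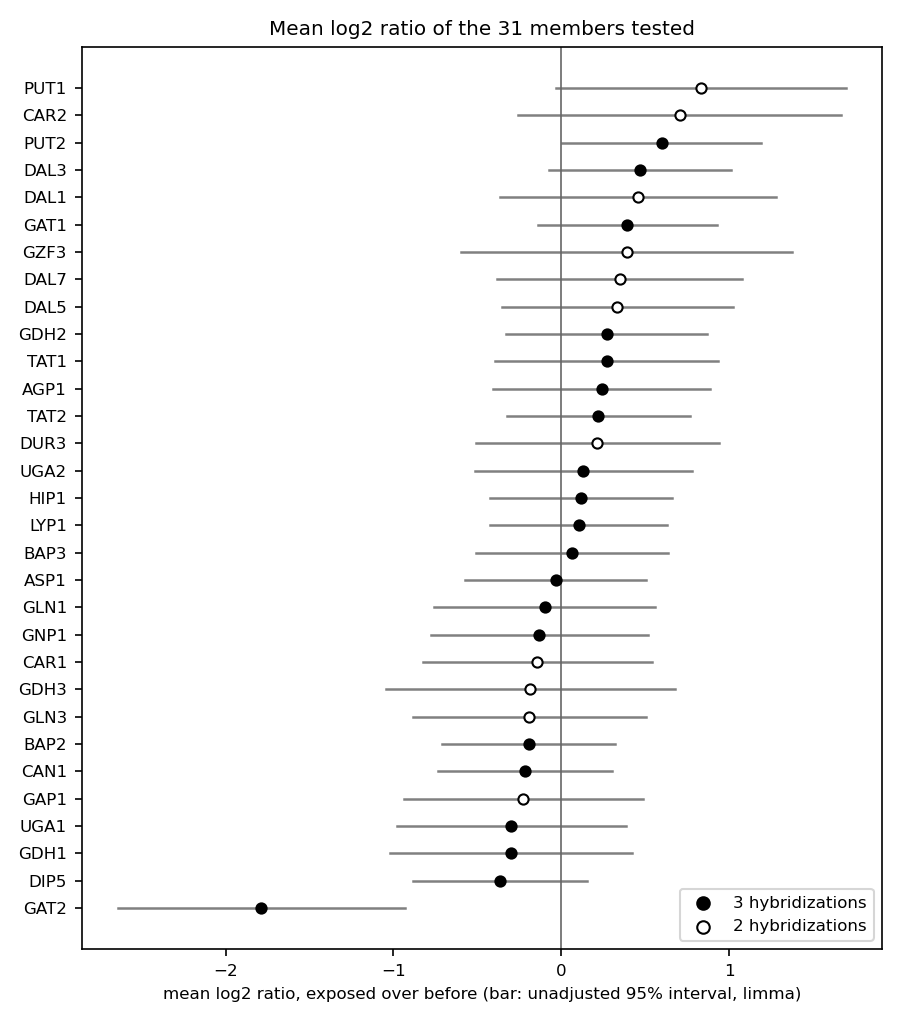
Mean log2 ratio (exposed over before, horizontal axis) of the 31 tested members in order, with the unadjusted 95% confidence interval from limma as a bar. Filled points rest on 3 hybridizations and open points on 2. The interval of GAT2, -2.64 to -0.93, lies farthest from 0, that of PUT2 starts just above 0, and the other 29 cross 0.

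Among the GATA-family factors GAT2 stood lowest. It encodes a protein with a zinc finger of the GATA family, similar to those of Gln3 and Dal80. Its log2 ratios were -1.34, -3.04 and -0.98 on hybridizations 1, 2 and 3. All of them lay below 0, and hybridization 2 was far lower than the others. The mean was -1.79 ± 1.10 (SD, n = 3), or 3.45-fold lower in exposed cells, and it did not pass (adjusted p = 0.269, limma). Only 4 genes of the array had a lower mean: TIR1, EEB1, FIT1 and FIT3, named for that rank after their values were seen. Counted from the lowest, GAT2 ranked 37 of 5335 genes on hybridization 1, 3 of 3854 on hybridization 2 and 75 of 4869 on hybridization 3.

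The size of the GAT2 value rests on hybridization 2, where only the high-power scan gave a value. Both scans had one on hybridization 1, at -1.25 (high) and -1.43 (low), and on hybridization 3, at -1.18 and -0.78. Without hybridization 2 the mean was -1.16 (adjusted p = 0.840), and without hybridization 3 it was -2.19 (adjusted p = 0.0752, limma). Spots of the same group of neighbouring spot numbers had medians of -0.24, 0.10 and -0.01, and with these taken out GAT2 had a mean of -1.74 (adjusted p = 0.597, limma). Under the 11 alternatives, which varied the scans, the gene filter, the centring, the moderation or the arrays included, the mean ran from -2.19 to -1.10 and the adjusted p from 0.0752 to 0.865.

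**Figure D3:**
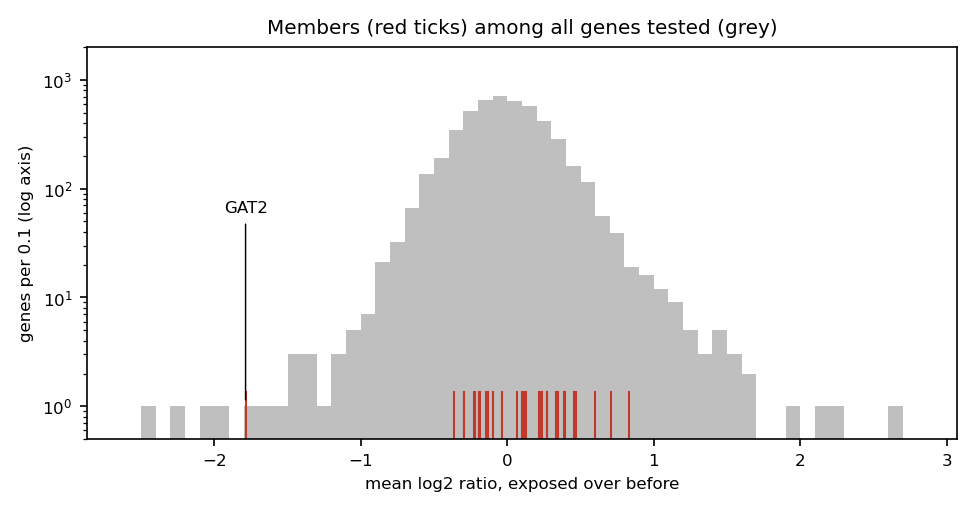
Number of genes (vertical axis, log scale) by mean log2 ratio (horizontal axis, steps of 0.1) over the 5064 genes tested, with each of the 31 tested members as a red tick. GAT2, at -1.79, lies in the sparse lower tail, and the other members lie within the bulk between -0.37 and 0.83.

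The main regulators of nitrogen catabolite repression showed smaller values. The activator gene GAT1 had 0.12, 0.58 and 0.48, higher on every hybridization, with a mean of 0.39 ± 0.24 (SD, n = 3; adjusted p = 0.977, limma). The other activator gene, GLN3, had -0.36 on hybridization 1 and -0.02 on hybridization 3, and none on hybridization 2. GZF3, the gene of a GATA repressor, had 1.25 on hybridization 1 and -0.47 on hybridization 3, values of opposite sign. On hybridization 1 the spots of its position group had a median of 0.56, and with position groups centred its mean moved from 0.39 to 0.17. DAL80, which encodes the repressor whose own gene is under nitrogen catabolite repression, had a value on hybridization 1 alone, at -0.23, and was not tested.

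Permease genes under nitrogen catabolite repression were the least completely measured. These carry general amino acids (GAP1), proline (PUT4), GABA (UGA4), allantoin (DAL4), allantoate (DAL5) and urea (DUR3). None of the 6 had a value on hybridization 2, 3 had values on hybridizations 1 and 3, and 3 on hybridization 1 alone. The allantoate permease gene DAL5 had 0.46 and 0.21, both above 0, with a mean of 0.33 ± 0.18 (SD, n = 2). GAP1 had 0.02 and -0.47, a mean of -0.23 ± 0.35 (SD, n = 2), and DUR3 had -0.08 and 0.51. The adjusted p was 0.977 for each of these 3 (limma). On hybridization 1, PUT4 stood at -0.55, UGA4 at -0.41 and DAL4 at 0.30.

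All 10 of the other amino acid permease genes were measured on every hybridization, and their means lay between -0.37 and 0.27. Among them DIP5, the gene of the acidic amino acid permease, had the lowest mean. Its values of -0.37, -0.23 and -0.50 were all below 0 and close to each other, for a mean of -0.37 ± 0.14 (SD, n = 3), or 1.29-fold lower (adjusted p = 0.977, limma). The arginine permease gene CAN1 was likewise below 0 on each hybridization, at -0.36, -0.18 and -0.11, and had a mean of -0.22 ± 0.13 (SD, n = 3). The branched-chain permease gene BAP2 gave -0.14, -0.14 and -0.31, with the smallest SD of the group (0.10). For these 3 genes the interval of the mean still crossed 0, and its lower end was -0.89 for DIP5, -0.74 for CAN1 and -0.71 for BAP2.

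The remaining permease genes had values on both sides of 0. TAT1, which encodes a tyrosine and tryptophan permease that also carries valine, had 0.04, 1.03 and -0.26, high on hybridization 2 alone, with a mean of 0.27 ± 0.68 (SD, n = 3; adjusted p = 0.977, limma). It is the next gene to BAP2 on chromosome II, and the difference between these neighbours on hybridization 2 was 1.17. AGP1, the gene of a broad-range amino acid permease, had -0.23, -0.01 and 0.96, high on hybridization 3 alone. Its 2 spots held identical values in every scan and count as 1. GNP1, which encodes a glutamine permease related to Agp1, went the other way on hybridization 3, with -0.21, 0.54 and -0.72.

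The high and low scans of TAT1, AGP1 and GNP1 had the same sign where these genes stood apart. For TAT1 on hybridization 2 they gave 1.18 and 0.88, for AGP1 on hybridization 3 they gave 0.88 and 1.04, and for GNP1 on hybridization 3 they gave -0.71 and -0.74. The scans of these 3 genes differed by less than the hybridizations did, but both scans read the same array. For TAT1 the difference on hybridization 2, 0.30, was the largest of the 9 members with both scans there (median 0.11). BAP3, a further branched-chain permease gene, had -0.37, 0.46 and 0.10, and the tryptophan permease gene TAT2 had -0.12, 0.32 and 0.45. The lysine permease gene LYP1 and the histidine permease gene HIP1 had means of 0.10 and 0.12. The permeases are related in sequence, and a cDNA spot for one may bind RNA of another.

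Catabolic enzyme genes had the highest median of the role groups, 0.40 over 10 tested, and 7 of the 10 had a positive mean. The median was 0.13 over the 5 of them measured on every hybridization. No member of the group passed (adjusted p from 0.953 to 0.986, limma).

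Proline is broken down in the mitochondrion by proline oxidase (PUT1) and pyrroline-5-carboxylate dehydrogenase (PUT2). PUT2 had 0.64, 1.06 and 0.10, higher on each hybridization, with a mean of 0.60 ± 0.48 (SD, n = 3), or 1.51-fold higher (adjusted p = 0.953, limma). PUT1 had 0.19 on hybridization 1, 1.47 on hybridization 3 and none on hybridization 2, for a mean of 0.83 ± 0.91 (SD, n = 2), or 1.78-fold higher (adjusted p = 0.953, limma). Each gene was thus above 0 wherever it was measured, but PUT2 was near 0 on the hybridization where PUT1 was highest. The position group of PUT2 had a median of 0.44 on hybridization 1, and with position groups centred the mean of PUT2 was 0.40 and that of PUT1 was 0.95. Without hybridization 2 the mean of PUT2 was 0.37, and without hybridization 3 it was 0.85. The unadjusted p of PUT2 was 0.049 in the analysis reported (limma). It was 0.066 with the high-power scan alone, 0.13 with position groups centred, 0.12 without hybridization 1 and 0.29 without hybridization 2. Under the other settings that gave a value for PUT2 it was 0.018 to 0.048.

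**Figure D4:**
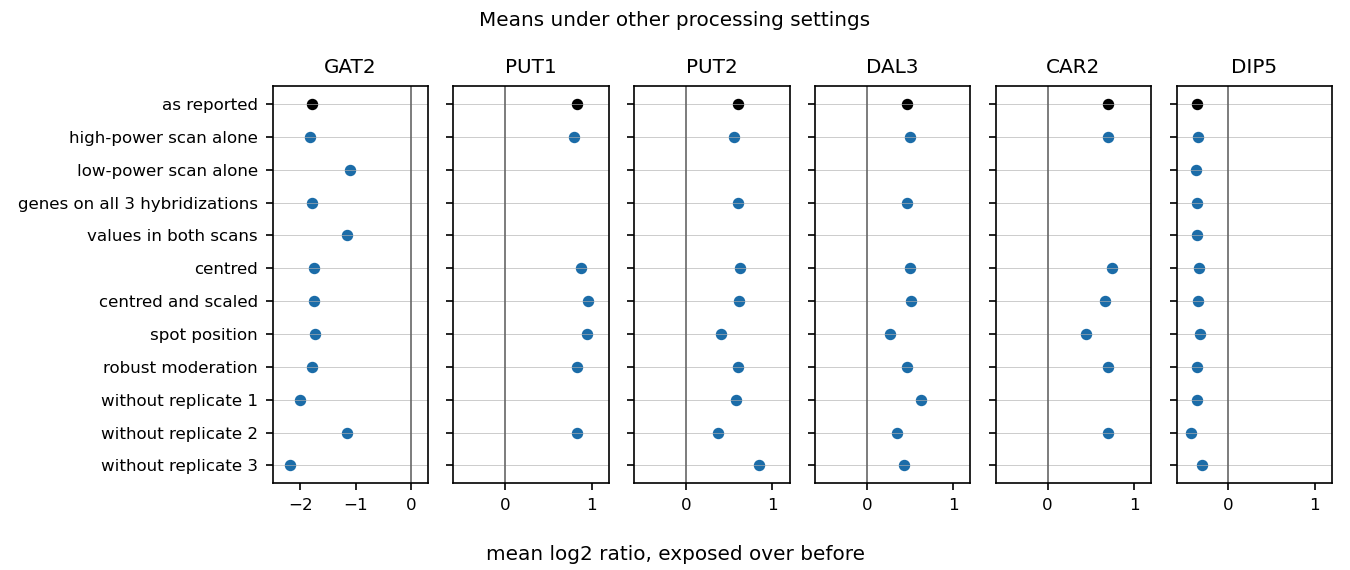
Mean log2 ratio (exposed over before, horizontal axes; the GAT2 panel has a wider scale) of GAT2, PUT1, PUT2, DAL3, CAR2 and DIP5 as reported (black) and under each other setting that gave a value (blue). No mean in these panels changes sign; GAT2 runs from -2.19 to -1.10, and PUT2 from 0.37 to 0.85.

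The genes of allantoin breakdown form a cluster of neighbours on chromosome IX, in the order DAL1, DAL4, DAL2, DCG1, DAL7 and DAL3. DAL3, the gene of ureidoglycolate lyase, was the one measured on every hybridization, at 0.14, 0.71 and 0.55, all above 0, with a mean of 0.47 ± 0.30 (SD, n = 3; adjusted p = 0.977, limma). The allantoinase gene DAL1 had -0.10 on hybridization 1 and 1.01 on hybridization 3, and the malate synthase gene DAL7 had 0.02 on hybridization 1 and 0.68 on hybridization 2. The allantoicase gene DAL2 had -0.61 on hybridization 1 alone. On that hybridization, the one that measured the whole cluster, the neighbours ran from -0.61 for DAL2 to 0.90 for DCG1 and did not share a direction. DAL3 lay in the same position group as PUT2, and with position groups centred its mean was 0.27.

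Arginine is degraded by arginase (CAR1) and ornithine transaminase (CAR2). CAR2 had 1.53 on hybridization 1 and -0.12 on hybridization 3, a mean of 0.71 ± 1.17 (SD, n = 2; adjusted p = 0.977, limma), so its mean rests on hybridization 1. Its position group had a median of 0.64 there, and the mean was 0.44 with position groups centred. CAR1 had -0.21 and -0.08 on the same arrays. The GABA pathway genes UGA1, of a transaminase, and UGA2, of succinate semialdehyde dehydrogenase, were lowest on hybridization 1 and highest on hybridization 3. UGA1 had -1.09, -0.13 and 0.33, and UGA2 had -0.41, -0.02 and 0.83. The position group of UGA1 had a median of -0.49 on hybridization 1. With position groups centred the mean of UGA1 moved from -0.30 to -0.17. The asparaginase gene ASP1 had 0.01, 0.21 and -0.32.

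The genes of ammonium assimilation differed mainly between hybridizations. Ammonium enters glutamate through the NADP-dependent glutamate dehydrogenases Gdh1 and Gdh3 and glutamine through glutamine synthetase (GLN1), whereas Gdh2 releases ammonium from glutamate. GDH1 had -1.22, -0.0052 and 0.33, low on hybridization 1 alone, with a mean of -0.30 ± 0.81 (SD, n = 3; adjusted p = 0.977, limma). The position group of GDH1 had medians of -0.33 on hybridization 1 and -0.35 on hybridization 2. With position groups centred the mean of GDH1 was -0.10. The paralog GDH3 had -0.82 on hybridization 1 and 0.45 on hybridization 3. Both isozyme genes had the same sign on each of these arrays, but they are close copies and their spots may share RNA. GDH2 had -0.14, 0.13 and 0.82, with a mean of 0.27 ± 0.50 (SD, n = 3; adjusted p = 0.977, limma).

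GLN1 had 0.49, -0.81 and 0.03, low on hybridization 2 alone, for a mean of -0.10 ± 0.66 (SD, n = 3; adjusted p = 0.981, limma). On hybridization 2 the high and low scans of GLN1 gave -0.79 and -0.83. GLT1, the gene of glutamate synthase, was not analysed here. The median of the 4 tested genes of ammonium and glutamate metabolism was -0.48 on hybridization 1 and 0.39 on hybridization 3, where all 4 were positive. Over all genes the medians of these hybridizations were -0.05 and -0.04.

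Over the whole set, the direction depended on the hybridization. On hybridization 1, 13 of 31 members were positive, with a median of -0.10. On hybridization 2, 11 of 21 were positive, with a median of 0.13, and on hybridization 3, 18 of 30, with a median of 0.10. Across the 20 members with every value, the correlation between hybridizations was 0.55 for 1 and 2, 0.17 for 1 and 3 and 0.40 for 2 and 3. Without GAT2 it was 0.25, -0.10 and -0.04, so the likeness of the arrays over the members rests largely on that gene. These are descriptions across genes of the same arrays. High and low scans of a member differed by a median of 0.19, 0.11 and 0.10 on hybridizations 1, 2 and 3, and by at most 0.52 (TAT2 on hybridization 1).

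A further list of 65 genes of nitrogen sensing, pathway activators, the amino acid sensor, other permeases and other catabolic enzymes was read beside the members. Of these, 53 were tested and 0 passed (limma), with a median of -0.07. At an unadjusted p under 0.05, 0 were higher and 1 was lower, where 2.41% of all genes were higher and 2.59% lower. The 1 was MUP3, the gene of a low-affinity methionine permease. MUP3 had -0.31, -1.15 and -0.60, a mean of -0.69 ± 0.43 (SD, n = 3; adjusted p = 0.907, limma). OPT1, which encodes an oligopeptide and glutathione transporter, had -0.98, -0.13 and -0.61, and ARG82, an inositol polyphosphate kinase gene needed for arginine-dependent control, had -0.66, -0.07 and -0.63. MUP3, OPT1 and ARG82 had the largest means among the genes of the same sign on every array. Of the 42 genes of this list with every value, 7 were lower on all arrays, where 16.1% of all such genes were. Higher on all arrays was 1 of them, where 11.5% of all such genes were.

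The 7 genes around the amino acid sensor (SSY1, PTR3, SSY5, STP1, STP2, GRR1 and PTR2) had negative means from -0.30 to -0.03, and 0 passed (0 at an unadjusted p under 0.05, limma). Of all 5064 genes tested, 2698 had negative means, as had 33 of the 53 tested on the further list. On hybridizations 1, 2 and 3, the sensor genes with a positive value were 1 of 7, 2 of 5 and 3 of 7. Those of the whole further list were 12 of 53, 26 of 43 and 24 of 52. All 6 tested nitrogen-sensing genes and 6 of 8 pathway activators on this list had negative means too. Fewer were so among its other permeases (7 of 17) and other catabolic enzymes (7 of 15). The permease genes named at the start as induced by the sensor, AGP1, BAP2, BAP3, TAT1 and GNP1, had means from -0.19 to 0.27. The sensor itself, SSY1, had -0.28 on hybridization 1 and -0.12 on hybridization 3. Among the 6 ammonium and acetate transporter genes, ATO3 had -1.43, -1.79 and -1.40, a mean of -1.54 ± 0.22 (SD, n = 3; adjusted p = 0.136, limma). None of the 6 passed, and ATO3 was the 1 with an unadjusted p under 0.05 (limma). Over all genes 0.0395% passed, and at an unadjusted p under 0.05, 2.41% were higher and 2.59% lower. In sets as small as those of this paragraph, a count of 0 or 1 therefore says little about the set. The ammonium permease genes MEP1, MEP2 and MEP3 had means of -0.12, -0.26 and 0.20. Of 10 listed meiosis and sporulation genes, which belong to another cell state, 5 were measured on at least 2 hybridizations. None of the 10 had a value on hybridization 2. Of the 5 tested, 0 passed (0 at an unadjusted p under 0.05, limma). A ratio gives no level, so this count does not show whether such a state was present.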

How the data were processed

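Two-colour cDNA arrays of 3 hybridizations, each scanned at high and low laser power, gave 6 columns of log2 ratios over 6912 spots. The deposited log2 ratios come from LOWESS normalization by the authors, run scan by scan with flagged spots left out, per the labels. Log base, background correction and spot intensities are not stated in the labels, and signal over background is therefore unknown. LOWESS centres a scan and would hide a change shared by most genes. The platform annotation names a gene for 5513 spots, and 5508 of these received a current symbol from the R64 gene table, which was also used for gene order.

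Both scans of each spot were averaged, then spots of a gene. For genes with a value on at least 2 hybridizations, limma 3.58.1 in R 4.3.3 tested the mean against 0 (eBayes, two-sided, Benjamini-Hochberg adjustment over 5064 genes, threshold 0.05). The same step was also run on simulated data with independent noise and no position effects, and the outcome is not reported here. For 1 gene alone, an exact sign-flip test over 3 arrays gives at best p = 0.25, and limma borrows the spread of other genes. Where a member had 2 values, the fit used those 2.

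The members and lists were chosen with earlier results of these data known. Every member is accounted for. Values on each hybridization are given for members that passed, for those of 1 sign with a mean of at least 0.5, for the largest means of each role and for the main regulators; other values were picked after they were seen. Position groups are the 36 spots that share the first 3 digits of the spot number, centred on their median. Promoter and protein sequences were not analysed here.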

Additional observations from a re-analysis of the deposited data

How the results depend on the processing

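No nitrogen member and none of the other nitrogen genes passed under any of the 11 other settings tried (limma), as none did in the analysis reported. None of the ammonium and acetate transporters passed where they were tested. With the low-power scan alone and with values in both scans, 0 of these transporters were tested. Over all genes the number past the threshold was 2; it was 1 with the high-power scan alone, 0 with the low-power scan alone, 7 with values in both scans, 1 with position groups centred, and 0 to 3 with a hybridization left out (0 without hybridization 1). The members' median of 0.12 was -0.15 with the low-power scan alone (13 members, whose median was -0.10 in the reported means) and -0.12 with values in both scans (12 members, -0.07 in the reported means), so it depends on which members are measured; it stayed between 0.05 and 0.17 under the other settings. The GATA-factor median of 0.10 was -1.10 with the low-power scan alone and -1.16 with values in both scans, where GAT2 was the one factor left, -0.70 over genes on all 3 hybridizations, and -0.92 to 0.055 with a hybridization left out. The catabolic median of 0.40 was -0.19 with the low-power scan alone and -0.16 with values in both scans, where 1 gene was left, and 0.13 over genes on all 3 hybridizations. The median of the other amino acid permeases was -0.12 to 0.082 with a hybridization left out.

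Of 271 member means under other settings, 14 changed sign, in 12 members, none of which passed. GDH2 had -0.0054 with values in both scans, a setting that left out its hybridization 3. ASP1 had 0.035 with position groups centred. With a hybridization left out the means ran from -0.0054 to 0.48 for GDH2, -0.16 to 0.11 for ASP1, -0.011 to 0.27 for HIP1, -0.61 to 0.10 for UGA1, -0.61 to 0.16 for GDH1, -0.13 to 0.28 for BAP3, -0.11 to 0.54 for TAT1, -0.0035 to 0.18 for LYP1, -0.39 to 0.26 for GLN1, -0.12 to 0.47 for AGP1, -0.47 to 0.16 for GNP1 and -0.22 to 0.40 for UGA2. The cause of these changes of sign was not tested. Each ratio already compares exposed with earlier cells on one array, and the arrays form a single group, so no further pairing was applied. Permeases under nitrogen catabolite repression gave no median without hybridization 1 or 3, with the low-power scan alone, or where both scans or all 3 hybridizations were required; the transporters gave none with the low-power scan alone or where both scans were required. The planned promoter motif search and comparison of paralog proteins were not run. The number of arrays and the missing values of hybridization 2 limit what could be detected, and signal over background is unknown.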

Other observations

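Vacuolar proteases and the pathway that turns aromatic amino acids into fusel alcohols supply and consume amino acids inside the cell. Their genes were picked for description after the values were seen, and all those of the lists with at least 2 values are given. Among the vacuolar genes, the proteinase A gene PEP4 had -0.31, 0.46 and 1.11 on hybridizations 1, 2 and 3, the aminopeptidase gene APE1 had -0.50, 0.51 and 1.43, and the carboxypeptidase gene CPS1 had -0.52, -0.04 and 0.40. These 3 were lowest on hybridization 1 and highest on hybridization 3. In the aromatic pathway the same order held for ARO9 and ARO10 but not for ARO8. The transaminase gene ARO9 had -0.96, 0.64 and 0.76 and the decarboxylase gene ARO10 had -0.58, 0.24 and 0.44, whereas the other transaminase gene, ARO8, had 0.14, 0.12 and -0.10. ARO80, the gene of the activator of ARO9 and ARO10, had 0.12 on hybridization 1, -1.20 on hybridization 2 and none on hybridization 3. None of these genes passed (limma, adjusted p from 0.977 to 0.988).

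The share of genes with a value on hybridization 2 differed between the roles. It was 100% for the 10 other amino acid permeases, 75% for ammonium assimilation and 54.5% for the 11 catabolic enzymes. The GATA factors had 40%, and the 6 permeases under nitrogen catabolite repression had 0%, against 71.8% of all named genes. The 0% was not particular to these permeases, since the 10 meiosis and sporulation genes had 0% too. Of the ammonium and acetate transporters 50% had such a value, and of the other nitrogen genes 72.9%. The cause was not tested.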
